A study of Mus musculus with 12 samples.

Results

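The 10 genes described here encode immediate early proteins and the AP-1 transcription factors, measured by bulk RNA sequencing in lymphoid progenitors of the mouse bone marrow. They were chosen by name (Fos, Fosb, Jun, Junb, Jund, Egr1, Ier2, Dusp1, Zfp36 and Klf6), each matched 1 row of a table of 32285 genes, and all 10 were among the 13367 genes with enough counts to be tested. The 12 libraries came from Ly6d- CLPs (common lymphoid progenitors) and from Flk2+ MPPs (multipotent progenitors) of wild-type (WT) C57BL6/J mice aged 1 month (1MO) or 3 months (3MO), for which the labels give no treatment, with 3 libraries in each of the 4 groups of cell type and age. Lineage-negative cells were enriched with magnetic beads from crushed bones after lysis of red cells and then sorted by flow cytometry. The study's methods describe the sort as done mouse by mouse, and a figure legend gives the CLP data as 3 independent experiments. The labels number the libraries of each group #1, #2 and #3. They do not say whether a number is shared by the CLPs and MPPs of the same mouse or day. The study compared the ages to ask how progenitors that feed the thymus change in young adults. The same libraries are described here by group and by replicate number, because the isolation of cells is also known to induce these genes.

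Immediate early genes are transcribed within minutes of a signal from poised promoters, without new protein synthesis, after kinase cascades activate nuclear factors such as SRF with its ELK partners and CREB. FOS proteins (Fos, Fosb) pair with JUN proteins (Jun, Junb, Jund) to form AP-1, a dimer that binds short DNA sites, while Egr1 and Klf6 encode zinc finger transcription factors and Ier2 a small nuclear protein. Dusp1 and Zfp36 encode brakes on the response. The DUSP1 phosphatase inactivates MAP kinases, and ZFP36 (tristetraprolin) binds AU-rich elements in the 3′ UTR of short-lived mRNAs and promotes their decay. In blood progenitors AP-1 and EGR factors are best known for roles in growth factor signalling and myeloid differentiation.

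Part of the members had few exons, a feature that their choice by name did not use. In the GENCODE annotation of GRCm38, 4 of the 10 (Jun, Junb, Jund and Ier2) had a single exon in the transcript chosen for the gene, against 2.69% of 12359 tested genes with such a transcript. At most 2 exons were found in 6 of the 10, against 7.27%, and the other 4 (Fos, Fosb, Dusp1 and Klf6) had 4 exons, against a median of 9. The AU-rich pentamer ATTTA was present in the 3′ UTR of 9 of the 10, all but Ier2, against 68.2% of genes, and its median density was 2.75 per kb in the members and 1.25 per kb over all genes. The nonamer TTATTTATT, the preferred target of ZFP36, was present in Fos, Dusp1 and Zfp36 itself, against 7.5% of genes. These sites are shown from the sense strand of the annotated transcript with the nonamer in capitals, because they are the targets on which one member acts.
Fos: tgttttcaatTTATTTATTaagatggatt
Dusp1: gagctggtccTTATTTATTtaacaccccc
Zfp36: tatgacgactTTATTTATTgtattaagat
The Dusp1 3′ UTR held 2 such nonamers, and the first is shown.

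Within the short windows searched, the regions around the start sites carried few exact matches to the sites through which these genes are usually described. A RefSeq promoter of build GRCm38.p6, from 250 bases before to 50 bases after the start, was matched for 8 of the 10 members, all but Egr1 and Ier2. Sites outside these windows were not searched. The window of Jund ends before the start of the gene in GENCODE (70698949 on chromosome 8), and may not hold the promoter used. Both strands were searched for 6 motifs. The cyclic AMP response element TGACGTCA, bound by CREB, was found in Dusp1 at position -143 from the start and in 1.79% of 32851 promoters. A CArG box, the site of SRF, was found in Zfp36 at position -58 and in 1.63% of promoters. The Egr site GCGNGGGCG was found in Fosb at position -50 and in Zfp36 at position -105, and in 5.55% of promoters. The TATA motif TATAAA was found in Fos at position -33 and in Junb at the RefSeq start itself, and in 13.6% of promoters. In GENCODE Junb starts downstream of its RefSeq start, at 84978718 on chromosome 8, so its motif lies upstream of that start. The AP-1 site TGANTCA was found in 0 of the 8 and in 7.81% of promoters, which says only that these letters are not in these windows. The GC box GGGCGG, which can overlap the Egr site, was found in 6 of the 8 and in 35.7% of promoters. The 150 bases before the RefSeq start of the 4 genes with such matches upstream are shown 5′ to 3′ on the strand of the gene, with the cyclic AMP response element, CArG box, Egr site or TATA motif in capitals. They lie at chr12:85473740-85473889 (+) for Fos, chr7:19310046-19310195 (-) for Fosb, chr17:26508473-26508622 (-) for Dusp1 and chr7:28379229-28379378 (-) for Zfp36.
Fos: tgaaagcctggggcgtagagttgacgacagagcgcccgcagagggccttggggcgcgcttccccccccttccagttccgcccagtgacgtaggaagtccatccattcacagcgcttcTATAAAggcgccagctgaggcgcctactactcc
Fosb: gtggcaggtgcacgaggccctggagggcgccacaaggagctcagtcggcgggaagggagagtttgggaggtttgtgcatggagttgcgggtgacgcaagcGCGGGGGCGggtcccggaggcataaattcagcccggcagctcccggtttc
Dusp1: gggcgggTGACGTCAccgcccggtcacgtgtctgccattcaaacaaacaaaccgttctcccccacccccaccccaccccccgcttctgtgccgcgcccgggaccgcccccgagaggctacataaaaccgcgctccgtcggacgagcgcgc
Zfp36: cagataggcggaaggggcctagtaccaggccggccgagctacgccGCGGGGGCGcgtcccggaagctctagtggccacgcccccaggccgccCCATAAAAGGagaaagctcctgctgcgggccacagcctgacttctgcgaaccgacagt

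The libraries held between 8889083 and 20677785 estimated counts. Levels are given as CPM, which are counts scaled to the library total after its correction by TMM factors for composition. The markers of the labelled cells were present in all 12 libraries: none of 9 was at 0, Flt3 (the gene of Flk2) lay between 1103 and 1524 CPM, and Il7r, which marks CLPs, lay between 298.8 and 401.8 CPM in CLPs and between 5.24 and 18.55 CPM in MPPs. In bulk RNA, fewer cells of a type and less RNA per cell cannot be told apart. Some libraries stood apart before any member was considered. The summed level of 7 erythroid markers was 84.7 to 135.4 CPM in the 4 libraries numbered 3 and 16.9 to 33.4 CPM in the other 8. The heat shock gene Hspa1b was at 283.9 and 147.8 CPM in the 3MO CLP #1 and 3MO MPP #1 libraries and at most 12.45 CPM elsewhere.

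Per kilobase of all annotated exons of a gene together, with the 4 groups pooled, Jun had the highest median of the members and Fosb and Egr1 the lowest. The median level over 12 libraries was 45.9 CPM per kb for Jun, 31.0 for Fos, 30.5 for Zfp36, 29.8 for Jund and 28.2 for Ier2. Junb followed at 17.9 CPM per kb, Klf6 at 11.4, Dusp1 at 6.56, Egr1 at 3.48 and Fosb at 2.46. By the length of the chosen transcript instead, Fosb was at 4.06 CPM per kb, above Egr1 at 3.48, Dusp1 was at 10.9, and Zfp36 at 37.9 lay above Fos at 34.6, while Jun was again highest at 45.9. The ranges over the 12 libraries overlapped for each neighbouring pair in this order, and the order changed within groups: in 3MO CLPs the median was 29.1 for Jund and 27.7 for Jun, and 2.8 for Fosb against 2.44 for Egr1 and 2.44 for Dusp1 (CPM per kb). Fosb also varied most, from 0.224 to 33.8 CPM per kb of all exons. Estimated counts of the members ran from 22 to 3556 per library.

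Fosb showed the widest spread within each group, and for Fosb and Fos the library numbered 1 was the highest in 7 of 8 cases. Fosb (ENSMUSG00000003545, chr7:19302696-19310051) had 107.2, 9.53 and 1.40 CPM in the 1MO CLP libraries #1, #2 and #3, and 211.2, 13.2 and 17.5 CPM in the 3MO CLP libraries. In MPPs it had 60.2, 30.5 and 4.34 CPM at 1MO and 168.1, 13.2 and 10.35 CPM at 3MO. Library #1 was the highest of its group each time, by 13.9 to 76.8 times over the lowest library. Fos (ENSMUSG00000021250, chr12:85473890-85477273), the partner of JUN in classical AP-1, had 157.1, 67.8 and 37.3 CPM in 1MO CLPs and 205.8, 36.7 and 61.8 CPM in 3MO CLPs. In 1MO MPPs it had 88.7, 90.4 and 24.9 CPM, and in 3MO MPPs 225.9, 75.2 and 70.5 CPM. In 1MO MPPs libraries #1 and #2 lay close together and #3 was low, whereas in the other 3 groups #1 stood above both others.

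**Figure D1:**
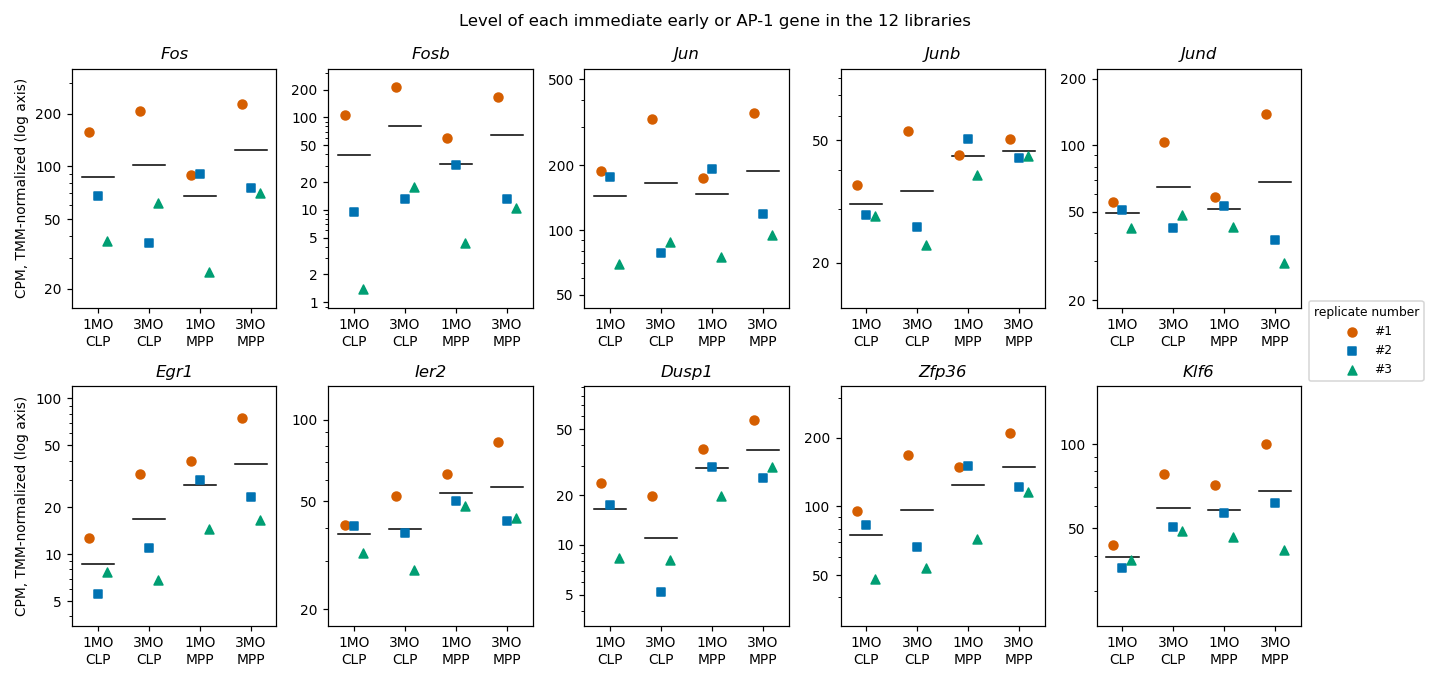
TMM-normalized CPM (log axis) of the 10 genes in each of the 12 libraries, with groups along the x axis, the replicate number as colour and shape, and a line at the mean of the group (n = 3). Library #1 is the highest of its group in 36 of 40 cases, most widely for Fosb, which ran from 1.40 to 211.2 CPM.

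In the JUN family library #1 was also the highest in 10 of 12 cases. Jun (ENSMUSG00000052684, chr4:95049034-95052222), the main transactivating subunit, had 186.9, 175.7 and 69.7 CPM in 1MO CLPs and 327.2, 78.0 and 88.3 CPM in 3MO CLPs. In MPPs it had 174.1, 191.8 and 74.65 CPM at 1MO and 350.7, 118.7 and 95.3 CPM at 3MO. At 1MO libraries #1 and #2 were alike and #3 low in both cell types, and at 3MO #1 alone was high. Jund (ENSMUSG00000071076, chr8:70698949-70700616), which is expressed in resting cells and is less inducible than its relatives, had 55.5, 50.9 and 42.2 CPM in 1MO CLPs, 103.4, 42.3 and 48.55 CPM in 3MO CLPs, 58.5, 53.0 and 42.8 CPM in 1MO MPPs and 138.7, 37.5 and 29.55 CPM in 3MO MPPs. The 1MO values lay within 1.37 times of each other in each cell type, while 3MO #1 stood out in both. Junb (ENSMUSG00000052837, chr8:84974484-84978718), which often opposes Jun, had the narrowest range of the 10, from 22.85 CPM in 3MO CLP #3 to 53.5 CPM in 3MO CLP #1. The annotated span of Junb overlapped that of the more abundant gene Prdx2 on the opposite strand over 351 bases. Whether exons of both lie in this overlap was not tested. The library kit kept strand, but the strand setting of the counting was not given in the sources used here.

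Egr1, Ier2 and Klf6 were each highest in library #1 of all 4 groups. Egr1 (ENSMUSG00000038418) had 12.7, 5.58 and 7.68 CPM in 1MO CLPs and 32.6, 10.95 and 6.80 CPM in 3MO CLPs. It had 39.5, 29.85 and 14.6 CPM in 1MO MPPs and 74.6, 23.4 and 16.65 CPM in 3MO MPPs. All 6 MPP values exceeded the 1MO CLP values, and only 3MO CLP #1 among the CLP libraries reached the range of the MPPs. Ier2 (ENSMUSG00000053560, chr8:84661331-84662852) ran from 27.8 CPM in 3MO CLP #3 to 82.8 CPM in 3MO MPP #1, and Klf6 (ENSMUSG00000000078, chr13:5861482-5870394) from 36.0 CPM in 1MO CLP #2 to 100.3 CPM in 3MO MPP #1. These ranges, 2.97 and 2.79 times, were narrow beside the 13.4 times of Egr1.

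The brakes on the response varied with the inducible factors. Dusp1 (ENSMUSG00000024190, chr17:26505590-26562128) had 23.6, 17.4 and 8.31 CPM in 1MO CLPs and 19.8, 5.2 and 8.07 CPM in 3MO CLPs. It had 38.1, 29.6 and 19.9 CPM in 1MO MPPs and 56.9, 25.5 and 29.8 CPM in 3MO MPPs. At 3MO the highest CLP library lay below the lowest MPP library. Zfp36 (ENSMUSG00000044786, chr7:28376784-28380253) had 95.3, 82.6 and 48.1 CPM in 1MO CLPs, 168.6, 66.5 and 53.6 CPM in 3MO CLPs, 149.2, 149.8 and 72.3 CPM in 1MO MPPs and 209.6, 121.1 and 116.2 CPM in 3MO MPPs. Library #1 was high for both genes except in 1MO MPPs, where Zfp36 was level in #1 and #2. The annotated span of Dusp1, introns included, overlapped that of the more abundant gene Ergic1 on the opposite strand over 640 bases. Whether exons of both lie in this overlap was not tested. If they do, reads of the pair could be mixed where strand was not used in the counting. Ergic1 reached 1955 counts in a library, against 538 for Dusp1, and its log2 difference between CLPs and MPPs at 3MO was -0.12 ± 0.18 (SE, edgeR adjusted p = 0.81).

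Across the 4 groups, libraries with the same replicate number therefore ranked alike for these genes. Library #1 was the highest of its group in 36 of 40 combinations of member and group and the lowest in 0, whereas over all genes tested #1 was highest in 35.6% of combinations. The exceptions were Fos, Jun, Junb and Zfp36 in 1MO MPPs, where #2 was highest. Library #3 was the lowest in 30 of 40 and the highest in 0. Fosb, Jund, Egr1, Ier2, Dusp1 and Klf6, 6 of the 10, were highest in #1 in all 4 groups, against 4.2% of all genes. After subtraction of group means, each member correlated over the 12 libraries with the mean of the other 9, with Pearson r from 0.791 for Junb to 0.963 for Jun. This r is a description only, because the values of a library share its depth and its preparation.

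**Figure D2:**
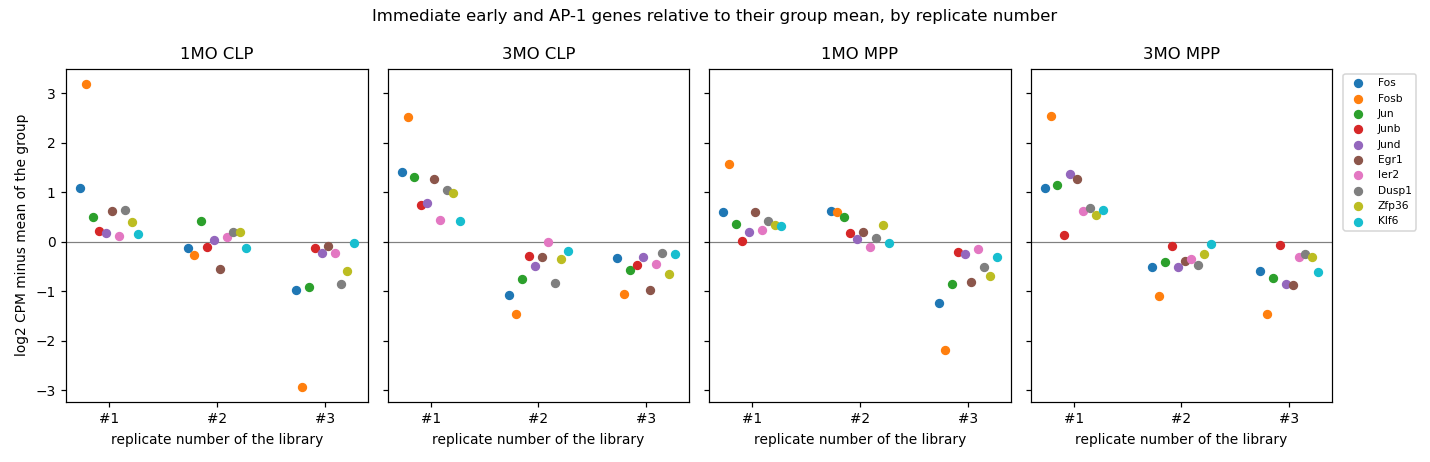
Difference of log2 CPM from the mean of the group (y axis) for each of the 10 genes by replicate number (x axis), with 1 panel for each group and 1 point for each gene and library. Points of #1 lie above 0 in all 4 panels and points of #3 lie below 0, while of the 10 points of #2 there are 5 above 0 in 1MO CLPs, 8 in 1MO MPPs, 1 in 3MO CLPs and 0 in 3MO MPPs.

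In a fit of group and replicate number with edgeR's quasi-likelihood test, replicate number was called for 1 of the 10 members, Fosb, at an adjusted p = 0.0033 (Benjamini-Hochberg over 13367 genes). Over all genes the test called 7, or 0.0524%, and Fosb ranked 3 by p. A further 4 members (Fos, Jun, Egr1 and Zfp36) had adjusted p = 0.086 in edgeR, and the remaining 5 lay between 0.13 for Dusp1 and Jund and 0.42 for Junb. At an unadjusted edgeR p under 0.05 there were 9 of 10 members and 14.4% of all genes. The fitted level in #1 over #3 was 19.3 times for Fosb, 3.52 for Fos, 3.15 for Jun and 3.15 for Egr1. It was 2.23 times for Dusp1, 2.21 for Zfp36, 2.14 for Jund, 1.61 for Klf6, 1.57 for Ier2 and 1.42 for Junb. In this contrast of #3 with #1 edgeR called 5 of 10 members (Fosb at an adjusted p of 0.0034, and Fos, Jun, Egr1 and Zfp36 at 0.032) and 1.56% of all genes. Over #2, library #1 was 7.84 times higher for Fosb and 1.29 to 2.34 times higher for the other 9, and 0 members and 0% of all genes were called, with 9 members at an unadjusted edgeR p under 0.05. Between #3 and #2 none of the 10 was called, with edgeR adjusted p from 0.98 to 1, while 3 had an unadjusted p under 0.05 (Fosb 0.021, Jun 0.012 and Zfp36 0.011). The shares of all genes at that unadjusted p were not computed for the contrasts with #2, so these counts stand without a background. The number of members called depended on single libraries: without 1MO MPP #2 it was 5 (with 280 genes called in all), without 3MO CLP #3 it was 4 (229 genes), without 1MO MPP #1 or 3MO CLP #2 it was 3 (15 and 9 genes) and without 1MO CLP #3 it was 2 (4 genes). Fosb was called in all 12 fits that left out 1 library. DESeq2 called 9 members and 729 genes. A fit of the 6 MPP libraries alone called 0 members (Fosb at an edgeR adjusted p = 0.22), and so did a fit without the 4 libraries numbered 1 (0.68).

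Other features of the libraries also followed the replicate number, and their part in these levels was not tested. Mitochondrial transcripts took 1.30% to 1.70% of counts in libraries #1 and 1.61% to 2.23% in #3, and #1 had the lowest share in 3 of 4 groups. Library totals were also lowest in #1 in 3 of 4 groups. Erythroid markers were highest in #3 in all 4 groups, with at most 2 of 7 at 0 in any library. The sum of stromal and endothelial markers was highest in #1 in 3 of 4 groups, with up to 5 of 7 at 0. It also differed between groups: it was 473.2 to 862.7 CPM in 1MO CLPs and 267.8 to 302.4 CPM in 3MO CLPs. In MPPs it was 138.0 to 223.1 CPM at 1MO and 126.7 to 179.3 CPM at 3MO. At 3MO most of this sum was Pecam1, at 298.8, 267.6 and 272.6 CPM in CLP #1, #2 and #3. In 3MO MPPs Pecam1 was at 163.4, 164.7 and 121.1 CPM. Col1a1, a collagen gene, was at 1.92, 0 and 0 CPM in the 3MO CLP libraries. Granulocyte and monocyte markers, none of 9 at 0, were highest in #1 in 1 group and lowest in #1 in 2 groups. Markers of the labelled cells and of dendritic cells were highest in #2 in all 4 groups.

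Of the heat shock genes, which respond to stress on proteins, 3 were high in 2 of the libraries numbered 1. Hspa1a, an inducible HSP70 chaperone, was at 182.2 CPM in 3MO CLP #1 and 134.4 CPM in 3MO MPP #1, and between 0 and 5.58 CPM in the other 10 libraries. Its near-identical copy Hspa1b followed it, although reads of the pair may be split uncertainly. Dnajb1, an HSP40 co-chaperone, was at 144.2 and 114.0 CPM in the same 2 libraries and between 62.9 and 90.7 CPM elsewhere. The 1MO #1 libraries, in which Fosb was also high, had Hspa1a at 5.58 and 2.25 CPM. None of 13 heat shock genes tested was called for replicate number by edgeR, with adjusted p = 0.086 for Hspa1b, 0.096 for Hspa1a and 0.24 for Dnajb1, while 4 had an unadjusted p under 0.05, beside 14.4% of all genes. Their highest library was #1 in 36.5% of 52 combinations of gene and group, near the 35.6% of all genes.

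Of 32 other immediate early genes tested, 0 were called for replicate number by edgeR and 7 had an unadjusted p under 0.05, beside 0.0524% and 14.4% of all genes. Their highest library was #1 in 55.5% of 128 combinations of gene and group, between the members and all genes. Nfkbiz, an atypical IkB family protein, had the smallest p among them (edgeR adjusted p = 0.088), with 32.9, 21.6 and 17.2 CPM in 1MO CLPs and 65.97, 32.6 and 32.6 CPM in 3MO MPPs. Klf2, a zinc finger factor of resting lymphocytes, had 27.6, 7.74 and 8.38 CPM in 3MO CLPs and 23.05, 4.68 and 2.84 CPM in 3MO MPPs (edgeR adjusted p = 0.091). Sik1, a CREB-induced kinase, had an edgeR adjusted p = 0.1 and was highest in #1 in all 4 groups. The 12 AP-1 partners outside the 10 members were highest in #1 in 35.4% of combinations, in #2 in 45.8% and in #3 in 18.8%, against 35.6%, 30.5% and 33.9% over all genes. For the 18 kinases and nuclear factors upstream of them these shares were 40.3%, 34.7% and 25.0%. Replicate number was called for 0 of 12 and 0 of 18 by edgeR, with 1 and 3 at an unadjusted p under 0.05.

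**Figure D3:**
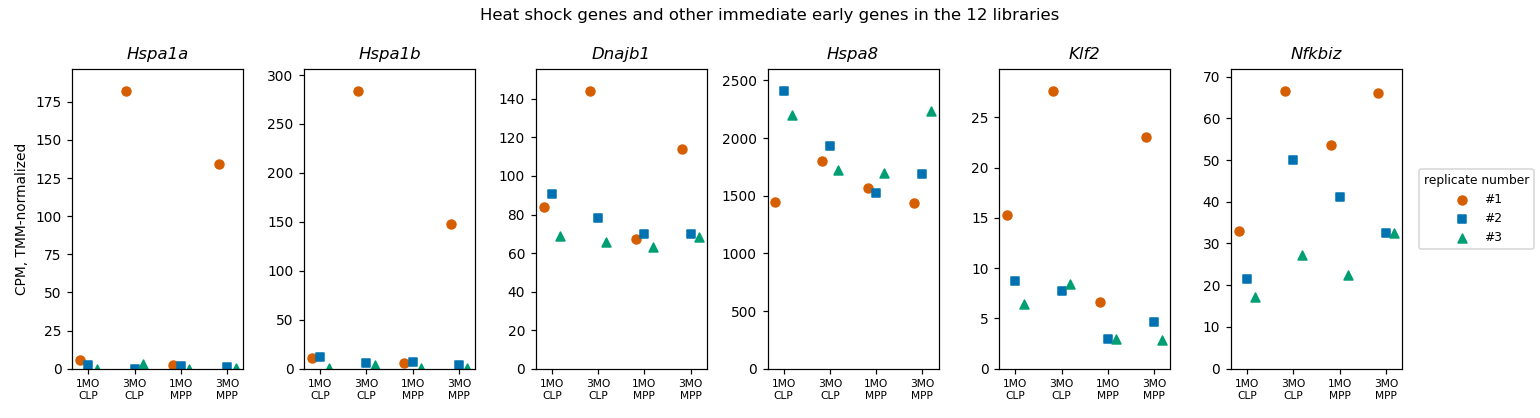
TMM-normalized CPM (linear axis from 0) of 4 heat shock genes and 2 other immediate early genes in the 12 libraries, with groups along the x axis and the replicate number as colour and shape. Hspa1a and Hspa1b reach 134.4 CPM or more in the #1 libraries of 3MO CLPs and 3MO MPPs and stay at or below 12.45 CPM in the others, whereas Klf2 and Nfkbiz are highest in #1 of all 4 groups.

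The 5 genes outside the list whose levels moved most like the mean of the members over the 12 libraries, after subtraction of group means, were Ankrd13d (Pearson r 0.984), Lmbr1l (0.983), Rngtt (0.973), Zfyve26 (0.970) and AU022252 (0.969). They were taken from 9505 genes with a mean log2 CPM of at least 3, and none of the 5 was on the list of other immediate early genes. Zfyve26 was itself called for replicate number (edgeR adjusted p = 0.0031), and the other 4 had adjusted p from 0.1 to 0.36. The libraries share depth and preparation, so these r are descriptions.

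CLPs held less Dusp1 than MPPs at 3MO, and none of the other 9 members passed the test. Dusp1 was at 11.01 ± 7.72 CPM in 3MO CLPs and 37.4 ± 17.0 CPM in 3MO MPPs (SD, n = 3 each), a difference of -1.77 ± 0.50 on the log2 scale (SE) or 3.42 times (edgeR adjusted p = 0.047). It was the 1 member of 10 called at 3MO, where 6.07% of all genes were called, and the 1 member whose groups did not overlap, against 21.8% of genes. The call was lost in 4 of 6 fits that left out 1 library: edgeR adjusted p was 0.15 without 3MO CLP #2, 3MO CLP #3 or 3MO MPP #1 and 0.059 without 3MO MPP #3. For Dusp1 it was 0.097 in a fit of the 6 libraries of 3MO mice alone and 0.0029 with the replicate number as a block. Log2 differences were below 0 for 9 of 10 members at 3MO, with a median of -0.37 against -0.03 for all genes. This count rested on single libraries: without 3MO MPP #1, 5 were above and 5 below 0 with a median of 0.03, without 3MO CLP #1 all 10 were below 0 with a median of -1.23, and without 3MO CLP #2 or #3 the medians were -0.19 and -0.15. Among the 9 not called, Egr1 had -1.19 ± 0.61 (edgeR adjusted p = 0.31, and 0.045 with the block) and Zfp36 -0.63 ± 0.40 (0.45). Within the replicate numbers, Fos, Jun, Egr1, Ier2, Dusp1 and Zfp36 were lower in the CLP library than in the MPP library of that number in 3 of 3 cases at 3MO, 6 of 10 members against 19.7% of all genes. The numbers are not known to pair libraries of the same mice. Markers of other cells also differed between the groups at 3MO, and their part in the Dusp1 difference was not tested. The sum for stroma and endothelium was 267.8 to 302.4 CPM in CLPs and 126.7 to 179.3 CPM in MPPs. Most of it was Pecam1, at 267.6 to 298.8 CPM in CLPs and 121.1 to 164.7 CPM in MPPs. The sum was 38.9 to 49.2 and 8.99 to 20.8 CPM for B cells, and 808.6 to 916.0 and 103.6 to 138.7 CPM for dendritic cells.

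At 1MO none of the 10 members was called between CLPs and MPPs, with edgeR, where 5.38% of all genes were called, and 1 of 10 had an unadjusted p under 0.05, against 15.8% of all genes. DESeq2 also called 0. That member was Egr1, at 8.65 ± 3.65 CPM in CLPs and 27.99 ± 12.6 CPM in MPPs (SD, n = 3 each), a log2 difference of -1.70 ± 0.62 (SE, edgeR adjusted p = 0.15). Its call depended on the setting: edgeR adjusted p was 0.0085 without a filter on low counts, 0.035 in a fit of the 6 libraries of 1MO mice alone, 0.041 without the 4 libraries numbered 1 and 0.0082 with the replicate number as a block. Junb (-0.53), Egr1, Ier2 (-0.51) and Klf6 (-0.56) were lower in every CLP library than in every MPP library, 4 of 10 members against 13.8% of all genes. In either direction, the groups of 24.9% of genes did not overlap. Dusp1 (-0.83) and Zfp36 (-0.72) had log2 differences farther from 0 than those of Junb, Ier2 and Klf6, but their groups overlapped. Fos and Fosb had log2 differences above 0 and Jun and Jund close to 0, and these signs rested on single libraries. With each library left out, Fos ran from -0.37 to 0.73 and Fosb from -2.51 to 1.19. Jun ran from -0.34 to 0.31 and Jund from -0.17 to 0.048. Without 1MO CLP #1 or 1MO MPP #3 all 10 members were below 0. Without 1MO CLP #3 or 1MO MPP #1, 4 were above 0 and 6 below. Within the replicate numbers 7 members (Junb, Jund, Egr1, Ier2, Dusp1, Zfp36 and Klf6) were lower in the CLP library than in the MPP library of that number in 3 of 3 cases, against 22.9% of all genes. The median was -0.52 for the members and -0.02 for all genes. With each library left out, that of the members ran from -0.64 to -0.38. Markers of other cells also differed between CLPs and MPPs at 1MO, and their part in these differences was not tested. The sum was 473.2 to 862.7 and 138.0 to 223.1 CPM for stroma and endothelium. It was 75.5 to 91.75 and 12.7 to 20.6 CPM for B cells, and 946.0 to 1054 and 85.7 to 128.6 CPM for dendritic cells.

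**Figure D4:**
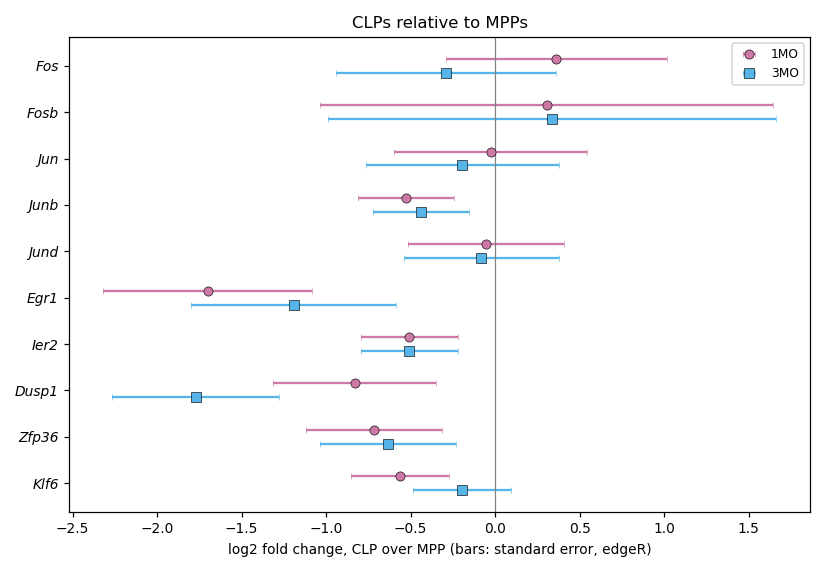
Log2 fold change of CLPs over MPPs (x axis, bars are the standard error from edgeR) of the 10 genes at 1MO and 3MO. All genes but Fos and Fosb lie below 0 at both ages, and Dusp1 at 3MO (-1.77) is the one value that passed the test.

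None of the 10 members passed the test for age in either cell type. In CLPs edgeR called 0 members at adjusted p from 0.86 to 0.99 and 0.0748% of all genes, and 0 members had an unadjusted p under 0.05. DESeq2 also called 0. The log2 difference of 3MO from 1MO was above 0 for 9 members, with a median of 0.28 against -0.01 for all genes. This direction rested on 3MO CLP #1: without it 2 members were above 0 and 8 below, with a median of -0.34, and without 1MO CLP #3 the counts were 6 and 4. In Klf6 the 1MO libraries averaged 39.5 ± 3.97 CPM and those of 3MO mice 59.3 ± 16.2 CPM (SD, n = 3 each), a log2 difference of 0.585 ± 0.29 (SE, edgeR adjusted p = 0.86). It was the 1 member whose ages did not overlap, against 10.6% of genes. Egr1 had a log2 difference of 0.96 ± 0.61 and Dusp1, the 1 member below 0, -0.59 ± 0.49. With each library left out, Egr1 ran from 0.048 to 1.33 and Dusp1 from -1.32 to -0.24. Dusp1 was lower, and Fosb and Klf6 higher, in the 3MO library of a number than in its 1MO library in 3 of 3 cases, directions seen in 15.6% (lower) and 13.2% (higher) of all genes. Fosb had the largest log2 difference, 1.04, with an SE of 1.34. It was -1.35 without 3MO CLP #1 and 3.85 without 1MO CLP #1, so that these single libraries set its direction and size. Markers of other cells moved with age in CLPs, and their part in the members' levels was not tested. The sum for stroma and endothelium was 473.2 to 862.7 CPM at 1MO, with at most 1 of 7 at 0, and 267.8 to 302.4 CPM in 3MO libraries, with 1 to 5 of 7 at 0. Col1a1, a collagen gene of stroma, was at 133.5 to 400.0 CPM in 1MO CLPs and 0 to 1.92 CPM in 3MO CLPs. The sum for B cells was 75.5 to 91.75 CPM and 38.9 to 49.2 CPM, with 2 and 2 to 4 of 7 at 0, and that for dendritic cells 946.0 to 1054 CPM and 808.6 to 916.0 CPM, with none of 4 at 0.

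In MPPs edgeR called 0 members for age, all at an adjusted p of 1, and 0.0224% of all genes. No member had an unadjusted p under 0.05, and DESeq2 called 0 as well. All 10 log2 differences were above 0, with a median of 0.36 against -0.01 for all genes. Without 3MO MPP #1, 1 was above 0 and 9 were below, with a median of -0.25, and without 1MO MPP #3 the counts were 7 and 3. The ages overlapped for all 10 members, and did not for 8.57% of genes. Fos averaged 68.0 ± 37.3 CPM in 1MO libraries and 123.9 ± 88.4 CPM in those of 3MO mice (SD, n = 3 each). It had 0.87 ± 0.66, Fosb had 1.01 ± 1.35 and Dusp1 0.35 ± 0.48 (log2, SE). Without 3MO MPP #1 these became 0.10, -1.42 and -0.08. The difference between the cell types in their age effect was called for 0 of 10 members and 0% of all genes by edgeR, with 0 members and 429 genes at an unadjusted p under 0.05, and DESeq2 called 0 members and 6 genes. The most negative value was that of Dusp1, -0.94 ± 0.68 on the log2 scale. With each library left out, Dusp1 ran from -1.67 to -0.51, Fosb from -2.36 to 2.85 and Fos from -1.70 to 0.11.

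**Figure D5:**
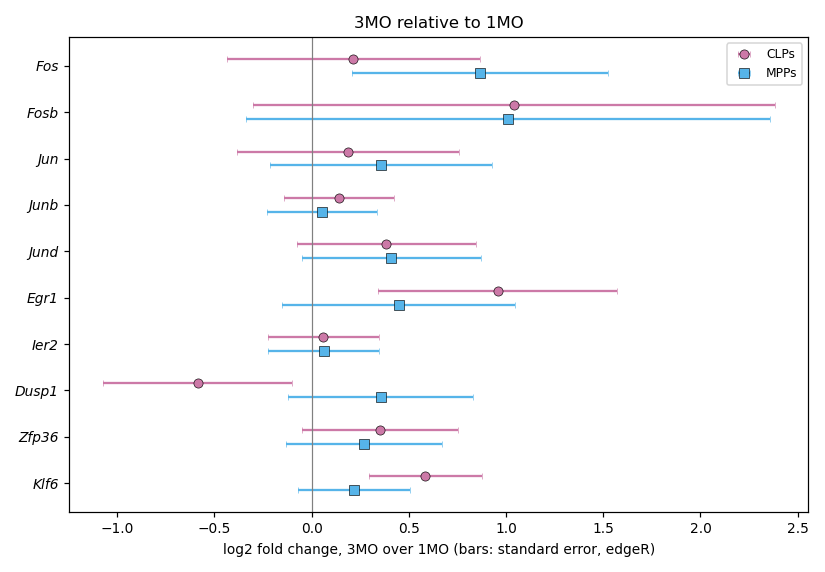
Log2 fold change of 3MO over 1MO (x axis, bars are the standard error from edgeR) of the 10 genes in CLPs and MPPs. All values but that of Dusp1 in CLPs (-0.59) lie above 0, none passed the test, most fall below 0 without the 3MO #1 library of that cell type, and the bars are widest for Fosb, at 1.34 and 1.35.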

How the data were processed

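The authors trimmed reads, aligned them with STAR to mm10 and quantified genes with Salmon in an nf-core workflow that also used UMI-tools. They deposited estimated counts per gene (length-scaled), 1 column for each of 12 libraries, which per the labels are poly(A)-selected RNA. The gene annotation was not given in the sources used here. All columns matched a sample title. Estimated counts were rounded to whole numbers. Genes were filtered with filterByExpr, scaled by TMM and tested with edgeR 4.0.16 (glmQLFit, glmQLFTest, R 4.3.3) in 1 fit of the 4 groups over 13367 genes, with Benjamini-Hochberg adjustment and a threshold of 0.05. Replicate number was tested as an added term. No test used the members alone. DESeq2 1.42.0, other scaling, filters on low counts, fits of fewer libraries and leaving out each library in turn were the alternatives, and leaving out the 4 libraries numbered 1 and levels per length of the chosen transcript were added after the data were seen. On simulated data, 3-fold changes were recovered for 122 of 200 genes for age in CLPs (13034 genes) and 149 of 200 for replicate number (13044 genes).

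All 10 members were named. From each context list the text names genes among the 3 with the smallest p for replicate number or for cell type at 1MO, and other called genes of a list, chosen after their values were seen; the 5 genes most like the members were taken by Pearson r. The members, lists and tests were chosen with earlier results of these data known. The p-values measure the spread between libraries, which may be technical in part. Sequences and motifs were read with Python 3.11.15 from RefSeq promoters and the GENCODE annotation of GRCm38.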

Additional observations from a re-analysis of the deposited data

How the results depend on the processing

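Over the alternatives, the 60 tested values of the members (10 genes, 6 tests) kept their direction and their side of the threshold in 748 recalculations, passed it in 31, lost it in 7 and changed sign in 104, in each of these 104 cases for values that had not passed. Members called for cell type at 1MO (0) became 1 (Egr1) without a filter, with 6 libraries alone and without the 4 libraries numbered 1. At 3MO (1) they became 0 with 6 libraries alone and 0 to 1 with each library left out. For replicate number (1) they were 7 without a filter, 9 with DESeq2, 0 with the 6 MPP libraries alone, 0 without the libraries numbered 1 and 1 to 5 with each library left out. The cause was not tested. Fosb for age in MPPs became -0.54 without the libraries numbered 1. With each library left out, Fosb ran from -1.35 to 3.85 in CLPs and from -1.42 to 1.89 in MPPs, and Dusp1 for age in MPPs from -0.079 to 0.59. All genes called for age in CLPs (10) were 46 without a filter, 4 with at least 10 counts in every library, 4 with 6 libraries alone, 5 without the libraries numbered 1, 57 with DESeq2 and 6 to 10 with a library left out. For age in MPPs (3) they were 26, 1 and 30 without a filter, with at least 10 counts and with DESeq2, and 3 to 5 with a library left out. For the interaction (0) they were 6 without a filter, 6 with DESeq2 and 0 to 1. For cell type at 1MO (719) they were 1175 with DESeq2 and 460 to 623 with a library left out, and at 3MO (812) 1371 with DESeq2 and 435 with 6 libraries alone. For replicate number (7) they were 567 without a filter, 4 with the 6 CLP libraries, 1 with the 6 MPP libraries, 4 without the libraries numbered 1, 729 with DESeq2 and 3 to 280 with a library left out. The count of combinations highest in #1 (36) was 35 by library totals and 36 by size factors.

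Deviations of same-numbered libraries correlated at -0.034 to 0.213, not every pair exceeded 0.1, and not every library correlated best with its own number, so the numbers were not taken as pairs. The labels do not say whether a number is a shared experiment. The descriptions of the libraries run in order of replicate number, with all libraries of #1 first, then those of #2 and of #3. With a replicate block the calls were 1 member at 1MO (Egr1, edgeR adjusted p = 0.0082) and 2 at 3MO (Dusp1 0.0029, Egr1 0.045), with 915 and 1007 genes. The block called 11, 3 and 0 genes for age in CLPs, age in MPPs and the interaction. At an unadjusted edgeR p under 0.05 it gave 6 members and 2359 of 13367 genes at 1MO, and 4 members and 2773 genes at 3MO. Without the block these were 1 and 2118 at 1MO, and 1 and 2540 at 3MO. With 3 libraries a group, 61% of simulated 3-fold changes with age were recovered. The changed genes were picked at random, so this share need not hold for the members. Their SE for age in CLPs ran from 0.28 for Junb to 1.34 for Fosb on the log2 scale. At 1MO Egr1 was 3.25 times lower in CLPs and was not called in the main fit. Changes of the members of this size, as well as smaller ones, could therefore be missed.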

Other observations

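Of 32 other immediate early genes tested with edgeR at 1MO, 1 was higher and 2 were lower in CLPs, beside 5.38% called over all genes. Cd69, a retention receptor of lymphocytes, was at 78.7 ± 15.9 CPM in CLPs and 31.97 ± 5.41 CPM in MPPs (SD, n = 3 each), a log2 difference of 1.30 (edgeR adjusted p = 0.0056). Klf10, a zinc finger factor induced by TGF-beta, was at 36.05 ± 0.847 and 85.3 ± 6.79 CPM (-1.24, edgeR adjusted p = 0.020). Pim1, a cytokine-induced kinase, was at 203.1 ± 23.7 and 315.5 ± 25.9 CPM (-0.64, edgeR adjusted p = 0.044). At 3MO, where 6.07% of all genes were called, Cd69 was again higher (0.94, edgeR adjusted p = 0.038), and Klf10 (-1.19, 0.025) and Ier3 (-2.003, 0.030) were lower in CLPs.

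Among 12 tested bZIP partners of AP-1, Mafg was lower in CLPs at 1MO (-0.97, edgeR adjusted p = 0.035), and at 3MO Maf was lower (-2.29, 0.018) and Mafk higher (0.61, 0.048). Of 18 upstream kinases and nuclear factors, Rps6ka3, the RSK2 kinase, was lower in CLPs at 3MO (-0.86, edgeR adjusted p = 0.035). None of 13 heat shock genes was called between the cell types by edgeR, with 1 at 1MO and 0 at 3MO at an unadjusted p under 0.05. Age was called for 0 genes of these 4 lists in either cell type, while at an unadjusted edgeR p under 0.05 in CLPs there were 3 other immediate early genes, 1 bZIP partner, 2 heat shock genes and 1 upstream gene, and in MPPs 2, 0, 1 and 0, beside 5.9% and 3.48% of all genes. Over the 12 libraries the summed markers of B cells ran from 8.99 to 91.75 CPM, those of T and NK cells from 17.1 to 40.98 CPM and those of megakaryocytes from 9.01 to 36.7 CPM. Dendritic cell markers ran from 85.7 to 138.7 CPM in MPPs and from 808.6 to 1054 CPM in CLPs.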
